A study of Mus musculus with 8 samples.

Results

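Interferon-stimulated genes were followed in 8 bulk RNA-seq libraries of the mouse mammary tumour cell lines TS/A and 4T1. The set of 38 genes was taken by gene symbol and covers RNA sensors, transcription factors, IFIT and OAS proteins, RNA-binding enzymes, the ISG15 system, large GTPases, membrane restriction factors, nucleotide enzymes and a PARP complex. All 38 were listed, out of 22026 gene symbols in the tables, of which 15815 had reads. Both lines are labelled BALB/c, were grown in RPMI medium with 10% fetal calf serum, and were cultured with type III collagen for 72 h before total RNA was taken. The 4 groups of 2 libraries were TS/A transduced with a virus vector labelled as carrying Gpr56 (Adgrg1, a collagen III receptor of the adhesion family), TS/A with the empty vector, 4T1 with the Gpr56 vector, and 4T1 with the empty vector. The series description gives transduction and collagen culture without naming a library grown without collagen. The sample titles, however, call the libraries labelled Gpr56 Emp_ColIII and the empty-vector libraries Emp_Control. The groups here follow the vector label, and a collagen difference between them, if there was one, cannot be told apart from the vector. Each cell line is 1 line, and no label tells whether the libraries within a group were grown separately, so a p-value measures only the spread between these libraries, which may be technical.

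Type I interferons signal through the receptor pair Ifnar1 and Ifnar2 to the kinases Jak1 and Tyk2, which activate STAT proteins, among them Stat2; with Irf9 these form a complex that binds the interferon-stimulated response element (ISRE). Type II interferon acts at gamma-activated sites (GAS). Many of these genes also have a basal level without added interferon, and several, among them Irf1, Ifit2 and Rsad2, can be switched on by other routes such as IRF3 or NF-kappaB.

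The targeted gene was read first. Adgrg1 had 90.5 and 100.1 CPM (counts per 1000000 reads, with TMM scaling over all 8 libraries) in the 4T1 Gpr56 libraries, against 2.53 and 2.77 CPM in the 4T1 empty-vector libraries. The TS/A values were 22.6 and 13.3 CPM in the libraries labelled Gpr56, against 34.8 and 16.3 CPM in the empty-vector libraries, so in TS/A the label is not borne out by the gene's own level. The TS/A comparison is therefore between libraries labelled Gpr56 and empty, and no direction in it is attributed to the receptor. The libraries held 10510569 to 25959142 reads, and in the shallowest of them 3 reads made 0.285 CPM.

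The 250 bases before the transcription start are shown for 6 members, since they differ in which elements they hold: Ifit1, Ifit3, Isg15 and Rsad2 have the ISRE core, and Ifit2 and Irf1 have a GAS. The sequences are from RefSeq, build GRCm38.p6, and read 5′ to 3′ on the strand of the gene. Capitals mark the ISRE core, which is TTTC, any 2 bases and TTTC, or GAAA, any 2 bases and GAAA on the other strand, and the GAS pattern TTCNNNGAA, which reads the same on both strands; the 3 overlapping ISRE matches of Isg15 run into each other. Ifit2 and Irf1 each have a further RefSeq start whose window holds neither pattern.
Ifit1 (chr19:34640639-34640888, plus strand): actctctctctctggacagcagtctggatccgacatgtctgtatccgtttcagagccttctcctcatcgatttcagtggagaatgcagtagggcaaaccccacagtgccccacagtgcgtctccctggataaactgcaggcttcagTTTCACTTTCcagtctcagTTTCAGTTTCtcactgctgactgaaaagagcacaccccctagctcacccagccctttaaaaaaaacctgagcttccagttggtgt
Ifit3 (chr19:34583279-34583528, plus strand): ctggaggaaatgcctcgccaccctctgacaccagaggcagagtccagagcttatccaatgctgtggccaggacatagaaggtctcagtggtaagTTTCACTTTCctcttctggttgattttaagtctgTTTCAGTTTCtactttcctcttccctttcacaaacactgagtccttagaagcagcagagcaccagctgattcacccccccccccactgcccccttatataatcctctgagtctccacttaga
Ifit2 (chr19:34550444-34550693, plus strand): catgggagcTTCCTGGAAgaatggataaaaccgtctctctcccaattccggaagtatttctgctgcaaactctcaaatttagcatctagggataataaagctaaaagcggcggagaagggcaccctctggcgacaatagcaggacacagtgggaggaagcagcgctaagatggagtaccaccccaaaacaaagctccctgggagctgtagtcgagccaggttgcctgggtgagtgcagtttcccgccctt
Isg15 (chr4:156200819-156201068, minus strand): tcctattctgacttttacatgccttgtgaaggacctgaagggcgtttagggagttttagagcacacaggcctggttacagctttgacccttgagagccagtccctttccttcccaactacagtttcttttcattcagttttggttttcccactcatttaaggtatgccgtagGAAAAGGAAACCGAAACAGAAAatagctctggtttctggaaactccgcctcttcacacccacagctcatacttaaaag
Rsad2 (chr12:26456453-26456702, minus strand): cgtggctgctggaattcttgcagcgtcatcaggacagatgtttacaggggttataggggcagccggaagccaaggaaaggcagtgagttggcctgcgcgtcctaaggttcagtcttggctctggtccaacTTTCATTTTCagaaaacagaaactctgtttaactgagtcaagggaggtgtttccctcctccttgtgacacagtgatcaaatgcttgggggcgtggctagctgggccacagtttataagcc
Irf1 (chr11:53769764-53770013, plus strand): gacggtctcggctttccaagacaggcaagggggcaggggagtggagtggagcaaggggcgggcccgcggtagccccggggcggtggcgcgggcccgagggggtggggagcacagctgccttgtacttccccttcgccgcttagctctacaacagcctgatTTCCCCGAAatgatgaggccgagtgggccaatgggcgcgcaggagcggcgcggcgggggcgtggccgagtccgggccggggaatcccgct

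The promoter set used held a RefSeq window, from 250 bases before to 50 after the start, for 30 of the 38 members. The other 8 had no window in that set. The ISRE core, on either strand, was in 15 of these 30 (50%), against 1079 of 27025 genes (3.99%) with windows of the same length. The GAS pattern was in 9 of 30 (30%), against 2582 of all genes (9.55%). A match of letters describes the sequence, is not a measured binding site, and its absence from the window says nothing of the factor.

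Levels per transcript length (RPKM, reads scaled to transcript length and library size, summed over the transcripts of a gene) spread the members from percentile 18.7 to percentile 96.2 of genes with reads. Ifitm2 and Ifitm3, membrane proteins that block virus entry, led with means of 139.8 and 112 RPKM over the 8 libraries. Bst2 (tetherin, which holds budding virus particles at the cell surface) followed at 46.4 RPKM, and Samhd1, which degrades deoxynucleotides, at 38 RPKM. These 4 genes made up 66.4% to 72.2% of the summed RPKM of all members in each library. Of the 38, 9 had a mean RPKM over 10, 18 lay from 1 to 10 and 11 lay under 1. The median member stood at 2.69 RPKM, against 4.89 RPKM for the median of all genes with reads. The low end held genes that interferon strongly induces elsewhere, with Mx1, Mx2, Oas2, Ifi44 and Ifitm1 at mean levels of 0.041, 0.111, 0.043, 0.105 and 0.144 RPKM. The first members of this order lay within their spread in TS/A, where Ifitm2 had 139 ± 15.7 RPKM and Ifitm3 118 ± 16.7 RPKM, and apart in 4T1, where Ifitm2 had 140.2 ± 18.9 RPKM and Ifitm3 106 ± 4.60 RPKM (SD, n = 4 libraries a line).

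**Figure D1:**
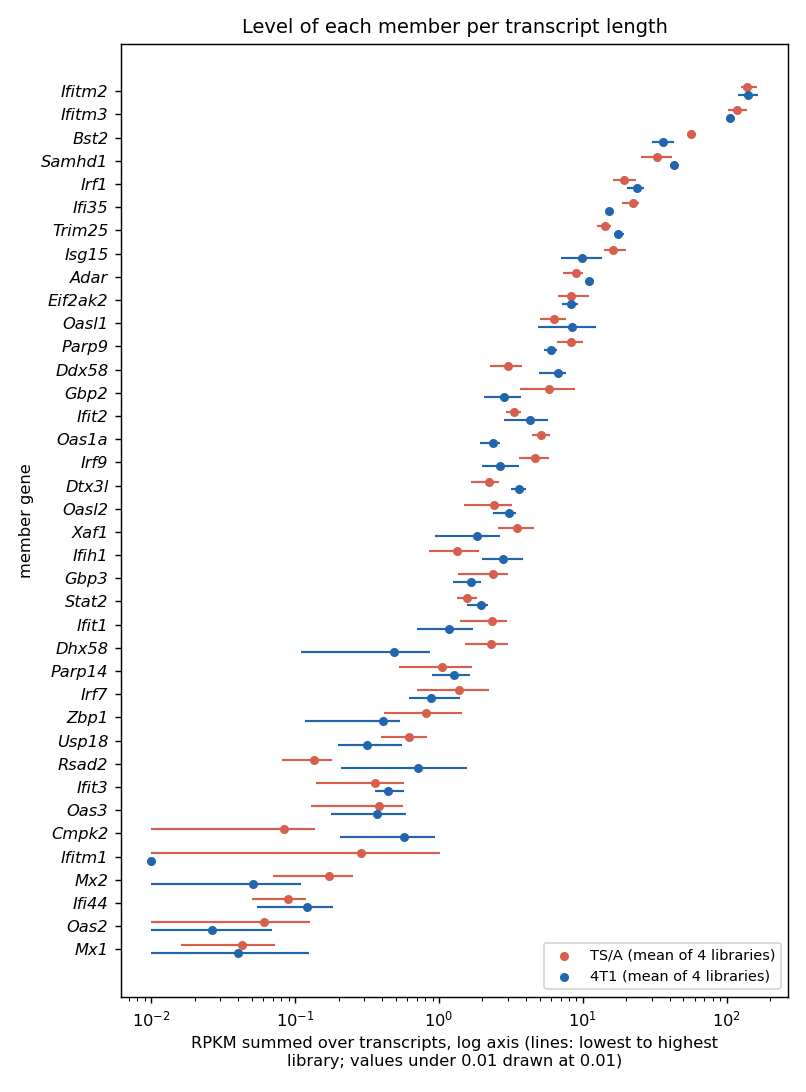
Level of each member in RPKM on a log axis, as the mean of the 4 libraries of TS/A and of 4T1, with lines from the lowest to the highest library. Ifitm2 and Ifitm3 stand over 100 RPKM in both lines, and 11 members average under 1 RPKM.

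In 4T1, the Gpr56 vector went with a mixed change of the interferon-stimulated genes. Of 32 members with enough reads to test, 10 rose in the Gpr56 libraries: Cmpk2, Dhx58, Rsad2, Oasl1, Ifit1, Isg15, Ifih1, Oasl2, Ddx58 and Bst2, by 1.24-fold (Bst2) to 3.51-fold (Cmpk2). Another 3 fell: Ifit2 to 0.532 times its empty-vector level, Irf1 to 0.745 times and Eif2ak2 to 0.836 times. The remaining 19 did not pass the test. The 10 are 31.3% of the tested members, against 11.5% of all 11361 genes tested that rose, and the 3 are 9.38%, against 11.3% of all genes that fell (edgeR quasi-likelihood test, Benjamini-Hochberg adjusted p under 0.05 over all genes tested). The median log2 fold change was 0.10 over the members and -0.000396 over all genes. The 2 Gpr56 libraries lay wholly above the 2 empty-vector libraries for 13 members (40.6%, against 30.5% of all genes) and wholly below for 7 (21.9%, against 31.2%).

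Among the members with a RefSeq window, the ISRE core was in 6 of 9 that rose, 1 of 3 that fell and 8 of 16 not called, and the GAS pattern in 1, 3 and 5 of them. The windows printed above are a choice from these. Cmpk2, Oasl1 and Oasl2 rose with neither pattern in their windows, and Eif2ak2 fell with both.

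The 4T1 counts rest on the small spread within 4T1, whose biological coefficient of variation was 5.47%, against 19.6% in TS/A; in a fit of all 8 libraries, which shares 1 spread, 0 of 35 members were called and 0.226% of all genes. With the DESeq2 Wald test 5 members were called, and leaving out 4T1 empty library 1, 4T1 empty library 2, 4T1 Gpr56 library 1 or 4T1 Gpr56 library 2 left 8, 6, 6 or 15; Cmpk2, Ifit2, Irf1 and Oasl1 were called in each of these 4 fits. Without scaling factors, on library totals, 1624 genes rose and 1042 fell over all genes, against 1308 and 1280 with them, and 12 members rose and 2 fell.

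**Figure D2:**
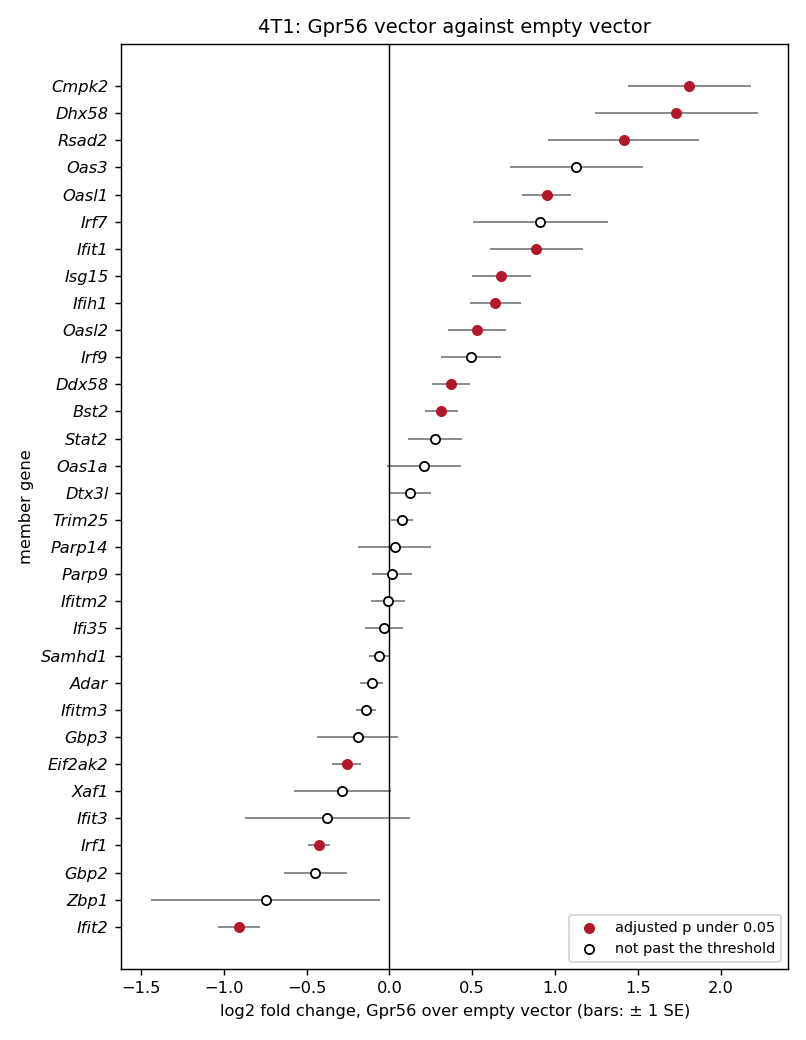
Log2 fold change of each tested member, 4T1 Gpr56 over 4T1 empty vector, with its standard error as the bar; filled points passed an adjusted p of 0.05. The 10 filled points right of 0 reach 1.81 for Cmpk2, and the 3 left of 0 are Eif2ak2, Irf1 and Ifit2.

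In TS/A, 0 of 33 tested members differed between the libraries labelled Gpr56 and the empty-vector libraries, as did 0 (0%) of all 11276 genes tested (edgeR, adjusted p under 0.05). At an unadjusted p under 0.05 there were 2 members, Ifih1 and Ifit3, and 115 of all genes (1.02%); the DESeq2 Wald test called 0 members and 3 genes. The libraries labelled Gpr56 lay wholly above the empty-vector libraries for 3 members (9.09%, against 11.3% of all genes) and wholly below for 2 (6.06%, against 10.4%). Without TS/A empty library 2, 1 member, Ifih1, was called lower, and 1140 genes over all. The spread of this line sets the reach of the test, and a member that missed the threshold is not shown to be alike in both groups.

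The difference between the vector effects of the lines, TS/A minus 4T1, was tested in 1 fit of all 8 libraries. It was called for 0 of 35 members and for 8 of all 11970 genes (0.0668%), with 7 members and 766 genes (6.4%) at an unadjusted p under 0.05. Ifih1 came nearest, with a log2 difference of -1.56 ± 0.28 (SE) and an edgeR adjusted p of 0.217; the DESeq2 Wald test called it. Ifit2 (1.04 ± 0.25, adjusted p = 0.38) and Cmpk2 (-3.60 ± 1.01, adjusted p = 0.515) followed. Leaving out TS/A empty library 1 gave 2 called members (Ifih1 and Ifit2), and leaving out TS/A empty library 2 gave 3 (these and Samhd1).

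Between the lines, 19 of 35 tested members differed: 10 were higher in TS/A and 9 lower. Dhx58 stood at 2.41 on the log2 scale, and Cmpk2 and Rsad2 at -2.73 and -2.36, although neither Cmpk2 nor Rsad2 passed in the empty-vector libraries alone. Higher in TS/A were Dhx58, Mx2, Gbp2, Oas1a, Ifit1, Irf9, Isg15, Bst2, Ifi35 and Parp9. Lower in TS/A were Cmpk2, Rsad2, Ddx58, Ifih1, Dtx3l, Samhd1, Oasl1, Adar and Trim25. These shares, 28.6% higher and 25.7% lower, stand under those of all 11970 genes tested, 32.8% and 32.4% (edgeR, mean of both vectors, adjusted p under 0.05). The median log2 fold change was -0.01 over the members and 0.01 over all genes. All 4 TS/A libraries lay above all 4 of 4T1 for 7 members (20%, against 28.9% of all genes) and below for 8 (22.9%, against 30% of all genes). In the empty-vector libraries alone 12 members were called, and 14 in the libraries labelled Gpr56. The shares of all genes in these single-vector contrasts are not given here, so the 2 counts do not set the members apart from other genes. Of the 10 members that rose with Gpr56 in 4T1, 4 were higher in TS/A, 5 lower and 1 was not called; these comparisons share the 4T1 libraries.

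**Figure D3:**
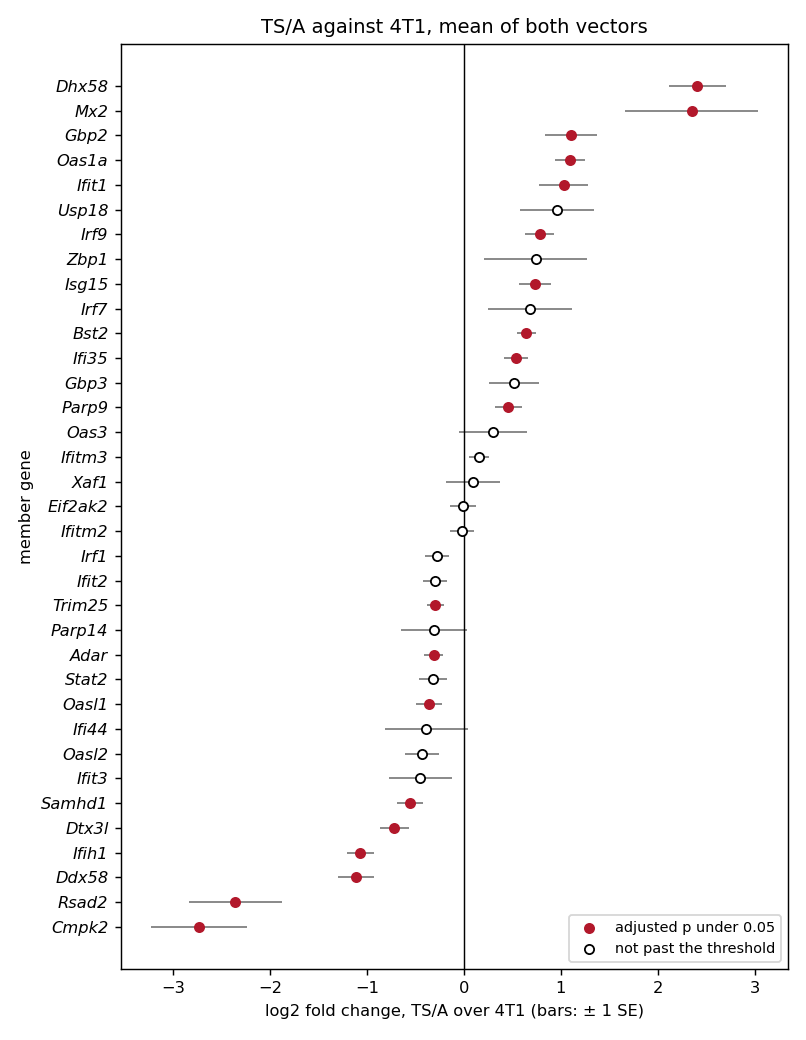
Log2 fold change of each tested member, TS/A over 4T1 over both vectors, with its standard error as the bar; filled points passed an adjusted p of 0.05. Points run from -2.73 for Cmpk2 to 2.41 for Dhx58, with 10 filled to the right of 0 and 9 to the left.

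Of the 19 members that differed over both vectors, 13 still passed between the libraries labelled Gpr56 and 10 between the empty-vector libraries. In each, 6 passed: Bst2, Ddx58, Dhx58, Irf9, Oas1a and Samhd1. The same counts over all genes are not given here, so these counts describe the members alone. In the empty-vector libraries alone, Cmpk2 was at -0.93 (edgeR adjusted p = 0.271), Rsad2 at -1.23 (adjusted p = 0.157), Ifih1 at -0.29 (adjusted p = 0.248) and Oasl1 at -0.13 (adjusted p = 0.591). Their values between the libraries labelled Gpr56 were -4.53, -3.48, -1.85 and -0.59, all past the threshold. Dtx3l, Gbp2, Ifi35, Parp9 and Trim25 also missed it in the empty-vector libraries, at adjusted p of 0.0584, 0.0517, 0.0661, 0.0522 and 0.0894. Between the libraries labelled Gpr56 alone, Ifit1 was at 0.46 (adjusted p = 0.296), Isg15 at 0.48 (adjusted p = 0.111), Mx2 at 0.63 (adjusted p = 0.525) and Adar at -0.21 (adjusted p = 0.228), and Parp9 and Trim25 missed the threshold there too (adjusted p = 0.129 and 0.0747).

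All 3 cytosolic RNA sensors of the RIG-I family rose with Gpr56 in 4T1 and differed between the lines. Ifih1 encodes MDA5, which recognises long double-stranded RNA. In 4T1 it had 16.1 and 12.3 CPM in the Gpr56 libraries, against 9.45 and 9.11 CPM in the empty-vector libraries, a log2 fold change of 0.64 ± 0.15 (SE, edgeR adjusted p = 0.00755). In TS/A it had 4.08 and 3.83 CPM in the libraries labelled Gpr56, against 8.12 and 7.05 CPM in the empty-vector libraries, -0.94 ± 0.24 (adjusted p = 1). The vector groups did not overlap in either line and lay in opposite directions, as for 2 members in all, Ifih1 and Ifit3. Of all genes, 30.5% lay wholly above and 31.2% wholly below in 4T1, and 11.3% and 10.4% in TS/A. How many of all genes did so in opposite directions was not counted, so this does not set the 2 members apart. All TS/A values of Ifih1 were below all its 4T1 values (-1.07 ± 0.14 over both vectors, edgeR adjusted p = 2.42e-04). In the empty-vector libraries alone that line difference was -0.29 and did not pass. Dhx58 encodes LGP2, a relative of MDA5 that lacks the signalling domains. It had 7.58 and 6.09 CPM in the TS/A libraries labelled Gpr56 and 5.33 and 4.04 CPM in TS/A empty. In 4T1 it had 2.20 and 1.59 CPM in the Gpr56 libraries and 0.281 and 0.846 CPM in the empty-vector libraries, the last pair from 5 and 18 reads. It was higher in TS/A throughout (2.41 ± 0.29, adjusted p = 1.59e-04) and rose with Gpr56 in 4T1 (1.73 ± 0.49, adjusted p = 0.0197), with a value of 1.19 when 4T1 empty library 1 was left out and 2.75 when 4T1 empty library 2 was. Ddx58, which encodes RIG-I, had 31.0 and 28.6 CPM in the 4T1 Gpr56 libraries, against 25.7 and 20.7 CPM in 4T1 empty (0.37 ± 0.11, adjusted p = 0.0294), and lay between 9.32 and 14.8 CPM in TS/A. Zbp1, a Z-form nucleic acid sensor, stayed at 1.30 CPM or less in all libraries. Without 4T1 Gpr56 library 1 the 4T1 calls of Ifih1, Dhx58 and Ddx58 were lost (adjusted p = 0.118, 0.15 and 0.117), and so were those of Dhx58 without 4T1 empty library 1 (0.217) and Ddx58 without 4T1 empty library 2 (0.421).

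Among the transcription factors, Irf1 fell in 4T1 Gpr56 and Irf9 was higher in TS/A. Irf1, an activator induced by interferon gamma and by other stimuli, had 45 and 43.9 CPM in the 4T1 Gpr56 libraries, against 59.6 and 59.8 CPM in 4T1 empty, a log2 fold change of -0.42 ± 0.07 (edgeR adjusted p = 4.53e-04). The TS/A values were 47.3 and 35.5 CPM in the libraries labelled Gpr56, against 48.9 and 37.9 CPM in the empty-vector libraries. The 4T1 groups did not overlap, while in TS/A library 1 was higher than library 2 in both groups. Irf9, the DNA-binding part of the ISRE complex, had 15.0 and 11.9 CPM in the TS/A libraries labelled Gpr56 and 12.3 and 10.1 CPM in TS/A empty. In 4T1 it had 9.22 and 7.59 CPM in the Gpr56 libraries and 5.63 and 6.44 CPM in the empty-vector libraries (0.49 ± 0.18, adjusted p = 0.0619, not past the threshold). All TS/A values of Irf9 were above all 4T1 values (0.78 ± 0.15, adjusted p = 0.00176). Stat2 ran from 6.46 to 10.2 CPM and Irf7, the amplifier of the type I response, from 0.956 to 4.19 CPM, and neither was called in any comparison.

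The IFIT genes, of which Ifit1 encodes a protein that binds foreign RNA ends, lie together on chromosome 19 (GRCm38, GENCODE M21: Ifit2 at 34550694 to 34576419, Ifit3 at 34583531 to 34588731, Ifit1 at 34640871 to 34650009, all on the plus strand). These 3 genes did not move as 1 unit. Ifit2 had 11.3 and 11.1 CPM in the 4T1 Gpr56 libraries, against 22.4 and 19.8 CPM in 4T1 empty (-0.91 ± 0.13, edgeR adjusted p = 1.28e-04). Ifit1 had 4.77 and 3.66 CPM in the 4T1 Gpr56 libraries, against 2.64 and 2.02 CPM in 4T1 empty (0.89 ± 0.28, adjusted p = 0.0318). The 4T1 groups did not overlap for either gene, with Ifit2 lower and Ifit1 higher in the Gpr56 libraries. Of the windows printed above, those of Ifit1 and Ifit3 hold the ISRE core and that of Ifit2 does not. Ifit3, with the core, was lower in the 4T1 Gpr56 libraries, without a call. Whether the core bears on the direction was not tested. In TS/A, Ifit2 had 11.8 and 14.4 CPM in the libraries labelled Gpr56, against 13.1 and 10.8 CPM in the empty-vector libraries. Ifit1 had 7.77 and 3.92 CPM in the TS/A libraries labelled Gpr56, against 7.87 and 6.19 CPM in TS/A empty. These TS/A groups overlapped. Ifit1 was higher in TS/A (1.03 ± 0.25, adjusted p = 0.00697), although its lowest TS/A library lay under the highest of 4T1. Ifit3 had 1.03 and 0.877 CPM in the TS/A libraries labelled Gpr56 and 0.451 and 0.269 CPM in TS/A empty, against 0.749 and 0.656 CPM in the 4T1 Gpr56 libraries and 1.07 and 0.799 CPM in 4T1 empty. Its vector groups lay in opposite directions in the lines without overlap, and how many of all genes did so was not counted. No test of Ifit3 passed (difference 1.75 ± 0.65, edgeR adjusted p = 0.703). How reads that also match the near copy Ifit3b were counted is not stated, so the level of Ifit3 is uncertain. The 4T1 call of Ifit1 was lost without 4T1 empty library 1, empty library 2 or Gpr56 library 1 (adjusted p = 0.0575, 0.273 and 0.211).

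In the OAS family, the Oasl genes changed with the vector in 4T1 and Oas1a differed between the lines. Oasl1, which in mouse restrains translation of Irf7, had 28.4 and 22.2 CPM in the 4T1 Gpr56 libraries, against 15.2 and 11.5 CPM in 4T1 empty, a log2 fold change of 0.95 ± 0.15 (edgeR adjusted p = 3.40e-04). In TS/A it had 16.1 and 17.6 CPM in the libraries labelled Gpr56, against 12.1 and 12.2 CPM in the empty-vector libraries (0.47 ± 0.19, adjusted p = 1). The groups did not overlap in either line, and those with the Gpr56 label were the higher ones in both. Oasl2, its neighbour on chromosome 5, had 9.27 and 8.34 CPM in the 4T1 Gpr56 libraries, against 6.58 and 5.73 CPM in 4T1 empty (0.53 ± 0.18, adjusted p = 0.0395). Oas1a, a synthase of the 2′-5′ oligoadenylates that activate RNase L, had 11.7 and 8.91 CPM in the TS/A libraries labelled Gpr56 and 9.51 and 10.4 CPM in TS/A empty, against 4.96 and 5.25 CPM in the 4T1 Gpr56 libraries and 3.88 and 4.89 CPM in 4T1 empty. All TS/A values lay above all 4T1 values (1.10 ± 0.15, adjusted p = 3.54e-04), with the limit that Oas1a belongs to a cluster of close copies. Oas3 had 1.87 and 1.97 CPM in the 4T1 Gpr56 libraries, against 0.900 and 0.846 CPM in 4T1 empty (1.13 ± 0.40, adjusted p = 0.0554), and Oas2 had 0 to 12 reads a library and was not tested. Oasl1 was lower in TS/A over both vectors (-0.36 ± 0.13, adjusted p = 0.0403), a call lost without 4T1 empty library 1, 4T1 Gpr56 library 1, TS/A Gpr56-label library 1 or TS/A Gpr56-label library 2 (adjusted p = 0.174, 0.164, 0.121 and 0.0708). The 4T1 call of Oasl2 was lost without empty library 1, empty library 2 or Gpr56 library 1 (0.0754, 0.28 and 0.171).

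Of the enzymes that act on double-stranded RNA, Eif2ak2 fell in 4T1 Gpr56 and Adar was lower in TS/A. Eif2ak2, the kinase PKR that halts translation, had 36.2 and 32 CPM in the 4T1 Gpr56 libraries, against 39.2 and 42.8 CPM in 4T1 empty (-0.26 ± 0.09, edgeR adjusted p = 0.0483). For TS/A the values were 36.2 and 32.6 CPM in the libraries labelled Gpr56, against 47.9 and 32 CPM in the empty-vector libraries, which overlapped. Its 4T1 call stood close to the threshold and was lost without empty library 1, empty library 2 or Gpr56 library 2 (adjusted p = 0.0832, 0.412 and 0.163). Adar, which edits adenosine to inosine, had 53.8 and 48.5 CPM in the TS/A libraries labelled Gpr56 and 52.4 and 42.7 CPM in TS/A empty. In 4T1 it had 60.2 and 57.7 CPM in the Gpr56 libraries and 65.2 and 62.3 CPM in the empty-vector libraries, all above TS/A (-0.31 ± 0.10, adjusted p = 0.0188). The gene counts do not separate the interferon-induced long form of Adar from the constitutive one, and without any of the 4 libraries of 4T1 in turn, or TS/A Gpr56-label library 2, the call was lost (adjusted p = 0.0784 and 0.0531 for empty 1 and 2, 0.0721 and 0.0513 for Gpr56 1 and 2, and 0.0714).

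Isg15, the ubiquitin-like protein that is attached to other proteins, had 10.8 and 8.44 CPM in the 4T1 Gpr56 libraries, against 6.47 and 5.78 CPM in 4T1 empty, a log2 fold change of 0.67 ± 0.18 (edgeR adjusted p = 0.0132). The TS/A values of Isg15 were 15.7 and 11.3 CPM in the libraries labelled Gpr56, against 10.7 and 13.7 CPM in the empty-vector libraries. The 4T1 groups did not overlap and those of TS/A did. It was higher in TS/A (0.73 ± 0.16, adjusted p = 0.00444), with the highest 4T1 library just above the lowest of TS/A. Usp18, which removes Isg15 and damps receptor signalling, ran from 0.376 to 1.52 CPM. It had too few reads to be tested for the vector in 4T1 and was not called in the other comparisons. Trim25, the ubiquitin ligase that activates RIG-I, ran from 77.2 to 91.4 CPM in TS/A and from 99.1 to 111 CPM in 4T1 (-0.30 ± 0.09, adjusted p = 0.0183). The 4T1 call of Isg15 was lost without empty library 2 or Gpr56 library 1 (adjusted p = 0.0842 and 0.145), and the line call of Trim25 without 4T1 empty library 1, 4T1 empty library 2, 4T1 Gpr56 library 1 or TS/A Gpr56-label library 2 (0.0633, 0.0701, 0.0855 and 0.0727).

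Of the large GTPases, neither Gbp2 nor Gbp3 was called for the vector in 4T1, and Mx1 and Mx2 had too few reads to be tested there. Gbp2, a guanylate-binding protein induced chiefly by interferon gamma, had 6.18 and 5.06 CPM in the 4T1 Gpr56 libraries, against 8.33 and 7.28 CPM in 4T1 empty (-0.45 ± 0.19, edgeR adjusted p = 0.101). Gbp2 in TS/A had 16.5 and 9.60 CPM in the libraries labelled Gpr56, against 21.1 and 10.2 CPM in the empty-vector libraries. All TS/A values lay above all 4T1 values (1.11 ± 0.27, adjusted p = 0.00637). Gbp3 ran from 3.51 to 8.16 CPM without a call, and reads may be shared within this family. Mx1 and Mx2, the antiviral dynamin relatives, were close to absent: Mx1 had 0 to 4 reads a library and was not tested in any comparison. Mx2 had 13 and 4 reads in the TS/A libraries labelled Gpr56 and 15 and 8 in TS/A empty, against 4 and 3 reads in the 4T1 Gpr56 libraries and 1 and 0 in 4T1 empty (2.35 ± 0.68, adjusted p = 0.0156). It no longer passed when 4T1 empty library 2, 4T1 Gpr56 library 1 or TS/A Gpr56-label library 1 was left out (adjusted p = 0.0744, 0.0592 and 0.0798), and the value was 3.54 without 4T1 empty library 1, which leaves the 4T1 empty group at 0 reads.

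Of the membrane factors, Bst2 differed in both comparisons. It had 47.1 and 50.9 CPM in the TS/A libraries labelled Gpr56 and 42.2 and 48.8 CPM in TS/A empty. In 4T1 it had 35.7 and 31.3 CPM in the Gpr56 libraries and 25.5 and 28.7 CPM in the empty-vector libraries. All TS/A values were above all 4T1 values (0.65 ± 0.10 on the log2 scale, edgeR adjusted p = 5.86e-04), and in 4T1 the Gpr56 libraries lay above the empty-vector ones (0.31 ± 0.10, adjusted p = 0.0365). The 4T1 call no longer passed without empty library 1, empty library 2 or Gpr56 library 1 (adjusted p = 0.323, 0.059 and 0.22). Ifitm2 and Ifitm3, close copies of each other, ran from 82.4 to 113 CPM and from 71.9 to 97.0 CPM over all libraries with no call. Ifitm1 had 15 reads in TS/A empty library 1 and 1 or 0 in each other library.

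The nucleotide enzymes Cmpk2 and Rsad2 are neighbours on chromosome 12 (GRCm38, GENCODE M21: Rsad2 at 26442746 to 26456452 on the minus strand, Cmpk2 at 26469204 to 26479837 on the plus strand) and both rose in 4T1 Gpr56. Cmpk2, a mitochondrial nucleotide kinase, had 3.14 and 2.81 CPM in the 4T1 Gpr56 libraries, against 1.01 and 0.705 CPM in 4T1 empty (1.81 ± 0.37 on the log2 scale, edgeR adjusted p = 0.00246). In TS/A it had 0.229 and 0 CPM in the libraries labelled Gpr56, against 0.410 and 0.485 CPM in the empty-vector libraries, all under every 4T1 library (-2.73 ± 0.49 over both vectors, adjusted p = 0.00146). The line value of Cmpk2 was -0.93 in the empty-vector libraries alone, not past the threshold, and -4.89 without TS/A Gpr56-label library 1, which leaves that group at 0 reads. Rsad2 encodes viperin, which makes a chain-terminating nucleotide. It had 6.23 and 1.97 CPM in the 4T1 Gpr56 libraries, against 2.42 and 0.940 CPM in 4T1 empty, so the groups overlapped although the test passed (1.41 ± 0.46, adjusted p = 0.0363). Without Gpr56 library 1 the log2 fold change of Rsad2 was 0.26 (adjusted p = 0.78), without empty library 2 it was 0.85 (adjusted p = 0.149), and without empty library 1 it was 2.20 (adjusted p = 3.33e-04). In TS/A Rsad2 had 0.419 and 0.323 CPM in the libraries labelled Gpr56, against 0.656 and 0.754 CPM in the empty-vector libraries, under every 4T1 library (-2.36 ± 0.48 over both vectors, adjusted p = 0.00263; -1.23 in the empty-vector libraries alone, not past the threshold). Samhd1 ran from 75.6 to 117 CPM in TS/A and from 128 to 139 CPM in 4T1 (-0.56 ± 0.13, adjusted p = 0.00602).

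The ubiquitin ligase Dtx3l and its partner Parp9 are transcribed away from each other from overlapping starts and went opposite ways between the lines. Dtx3l had 13.3 and 9.05 CPM in the TS/A libraries labelled Gpr56 and 14.0 and 11.5 CPM in TS/A empty, against 21.5 and 19.5 CPM in the 4T1 Gpr56 libraries and 17.2 and 20.5 CPM in 4T1 empty (log2 -0.72 ± 0.15, edgeR adjusted p = 0.00321). All TS/A values were under all 4T1 values. Parp9 ran from 20.9 to 30.4 CPM in TS/A and from 17.3 to 20.8 CPM in 4T1 (0.46 ± 0.14, adjusted p = 0.0181); its call was lost without 4T1 empty library 1, 4T1 empty library 2, 4T1 Gpr56 library 2 or TS/A Gpr56-label library 1 (adjusted p = 0.0599, 0.0559, 0.0726 and 0.0709). The exons of the genes share 458 bases on opposite strands, and the counting is not stated to use strand, so reads there could belong to either. Other members also share exon bases with a neighbour. Among them are Adar (1365 with Chrnb2), Ifi35 (290 with Gm11626), Ifitm2 (268 with Gm45717) and Irf9 (123 with Rnf31). The neighbours of Ifitm2 and Irf9 lie on the same strand as the member. Parp14 ran from 4.31 to 12.8 CPM with no call. Of the remaining members, Ifi35 had 34.2 and 32.2 CPM in the TS/A libraries labelled Gpr56 and 25.1 and 34 CPM in TS/A empty, against 22.4 and 20.1 CPM in the 4T1 Gpr56 libraries and 20.5 and 23.1 CPM in 4T1 empty, without overlap between the lines (0.54 ± 0.12, adjusted p = 0.00463). Xaf1, which promotes cell death, had 3.84 and 2.53 CPM in the 4T1 Gpr56 libraries, against 2.98 and 4.98 CPM in 4T1 empty (-0.28 ± 0.29, adjusted p = 0.537), and 5.75 and 3.05 CPM in the TS/A libraries labelled Gpr56, against 3.03 and 3.66 CPM in TS/A empty, and its groups overlapped in both lines. Ifi44 stayed at 0.562 CPM or less, had too few reads to be tested for the vector in 4T1, and was not called between the lines.

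**Figure D4:**
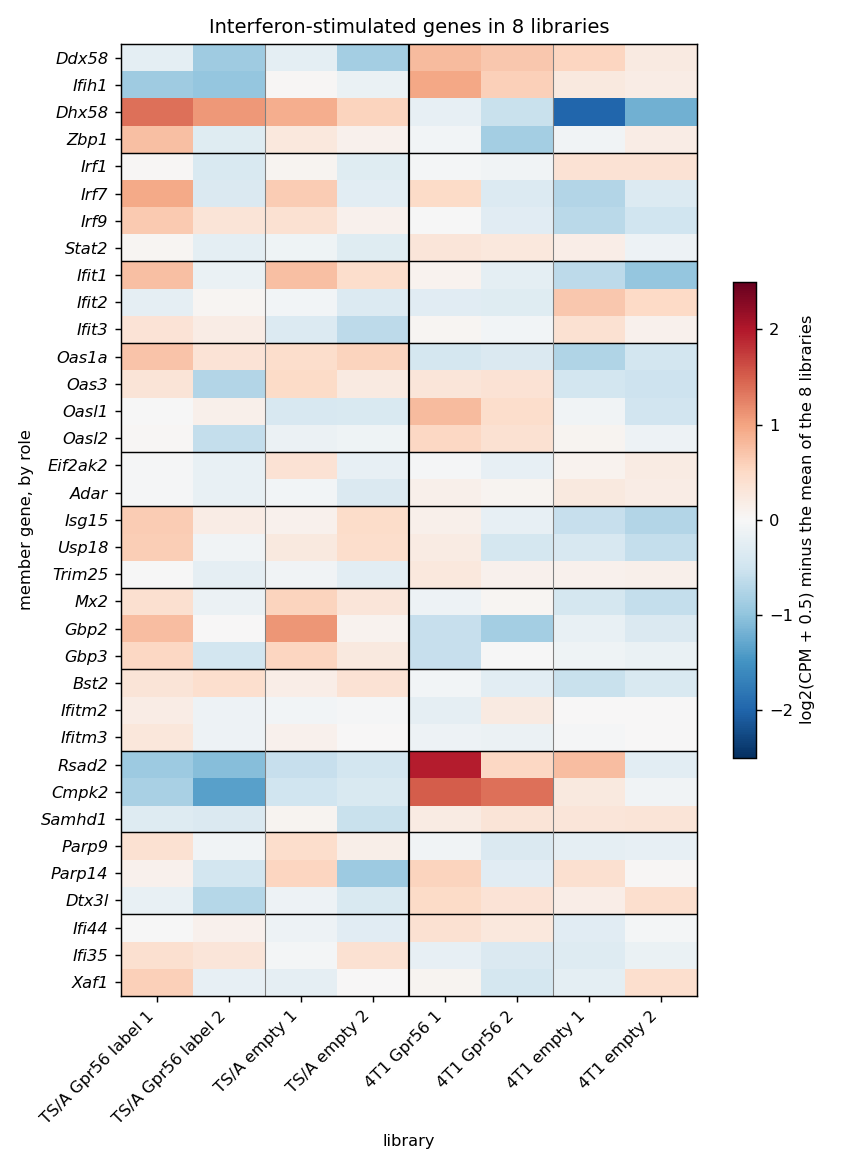
Heat map of the 35 members tested over all 8 libraries, by role, each cell the log2(CPM + 0.5) minus the member's mean over the 8 libraries. Cmpk2 and Rsad2 are low in all TS/A libraries and Dhx58 is high there, and library 1 of several groups is redder than library 2.

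Members also differed between libraries of the same group. In the TS/A libraries labelled Gpr56, library 1 was the higher one for 30 of 34 members, with a median log2 ratio of 0.40, while it was higher for 49.7% of all genes and their median was -0.00202. There 12 members (35.3%) were over 1.5-fold higher in library 1, against 5.17% of all genes. In TS/A empty, library 1 was higher for 24 of 35 members (68.6%, against 53.8% of all genes), with a median of 0.28 against 0.05. In 4T1 Gpr56, library 1 was higher for 29 of 35 members (82.9%, against 51.1% of all genes), with a median of 0.18 against 0.00586, and Rsad2 was 3.16-fold higher in it. In 4T1 empty the members split 18 higher of 34. Parp14, Ddx58, Gbp2 and Irf7 were over 1.5-fold higher in library 1 of both TS/A groups. The members' summed level was 819 and 682 CPM in the TS/A libraries labelled Gpr56, 805 and 688 CPM in TS/A empty, 818 and 793 CPM in 4T1 Gpr56, and 802 and 801 CPM in 4T1 empty. Without 4T1 Gpr56 library 1, which leaves 1 library in that group, the 4T1 rises of Bst2, Ddx58, Dhx58, Ifih1, Ifit1, Isg15, Oasl2 and Rsad2 were no longer called. Cmpk2 and Oasl1, which rose, and Ifit2, Irf1 and Eif2ak2, which fell, kept their calls in that fit. Beyond the fits with 1 library left out, how this spread relates to the changes above was not tested.

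**Figure D5:**
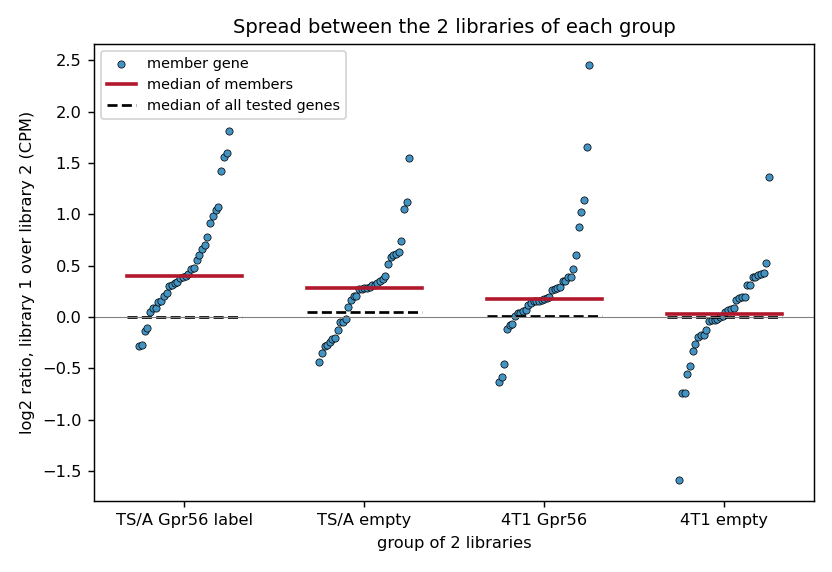
Log2 ratio of library 1 over library 2 of the same group for each member, with the median of the members and the dashed median of all tested genes. The members' medians are 0.40 and 0.28 in TS/A and 0.18 and 0.03 in 4T1, with the all-gene medians near 0.

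Most of the interferon genes listed had no reads in any library. Of the interferon alpha genes, only Ifna1, Ifna2 and Ifna4 were listed. Of 11 ligands listed (interleukin 6 among them), 8 had 0 reads in every library, namely Ifnb1, Ifna1, Ifna2, Ifna4, Ifne, Ifnk, Ifnl2 and Ifnl3; a count of 0 allows up to 0.285 CPM in the shallowest library. Ifng, the type II interferon, was listed and was not among these 8, and its reads are not given here. Ifnz had 5 and 5 reads in the 4T1 Gpr56 libraries, against 0 and 0 in 4T1 empty. The receptor chains Ifnar1 and Ifnar2 ran from 35.5 to 50.2 and from 24.8 to 32.4 CPM and were not called. Of 6 receptor genes, 1 rose with Gpr56 in 4T1 (16.7%, against 11.5% of all genes), the shared chain Il10rb (0.41 ± 0.12, edgeR adjusted p = 0.0192). Ifnlr1, the interferon lambda chain, had 0 reads in all TS/A libraries, against 2.67 and 1.88 CPM in the 4T1 Gpr56 libraries and 1.41 and 0.752 CPM in 4T1 empty.

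Of the kinases and STATs read, Stat3 rose in 4T1 Gpr56 (0.31 ± 0.06, edgeR adjusted p = 0.00258) and Jak1 fell (-0.19 ± 0.06, adjusted p = 0.0235). In the induction pathway upstream of interferon, 4 of 12 genes rose in 4T1 Gpr56 (33.3%, against 11.5% of all genes) and 1 fell (8.33%, against 11.3%). These calls too rest on the small spread within 4T1. In the fit of all 8 libraries, 1 of the 12 induction genes was called, with 0 of 6 receptors and 0 of 5 kinases and STATs. Of all genes, 0.226% were called in that fit. Ikbke, a kinase that activates IRF3, had 46.6 and 45.3 CPM in the 4T1 Gpr56 libraries, against 19.6 and 24.0 CPM in 4T1 empty (1.07 ± 0.10, adjusted p = 3.60e-06). Tlr3, the endosomal receptor of double-stranded RNA, had 27.7 and 28.3 CPM, against 16.2 and 15.3 CPM in 4T1 empty (0.83 ± 0.11, adjusted p = 7.73e-05). Irf3 rose as well (0.34 ± 0.11, adjusted p = 0.0338), with Irf2 at the threshold (0.31 ± 0.11, adjusted p = 0.0499). Nlrc5, the activator of MHC class I genes, had 5.90 and 6.56 CPM in the 4T1 Gpr56 libraries, against 12.8 and 12.5 CPM in 4T1 empty (-1.03 ± 0.16, adjusted p = 2.68e-04).

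Of 6 negative regulators, 2 rose in 4T1 Gpr56 (33.3%, against 11.5% of all genes) and 0 fell. Socs1, the inhibitor of JAK kinases, had 7.68 and 7.50 CPM in the Gpr56 libraries, against 3.71 and 3.38 CPM in 4T1 empty (1.10 ± 0.20, edgeR adjusted p = 0.00125), and Ptpn6, a phosphatase, rose by 0.41 ± 0.11 (adjusted p = 0.0132). Of 28 further interferon-stimulated genes tested, 5 rose (Oas1g, Ifi27, Tdrd7, Helz2 and Shisa5) and 1 fell (Parp10), that is 17.9% and 3.57%, against 11.5% and 11.3% of all genes. Ifi27 had 24.0 and 22.2 CPM in the 4T1 Gpr56 libraries, against 14.2 and 14.9 CPM in 4T1 empty (0.67 ± 0.12, adjusted p = 7.26e-04). In TS/A no tested gene of these lists was called. Between the lines, the further genes counted 12 higher and 6 lower in TS/A of 30 tested (40% and 20%, against 32.8% and 32.4% of all genes), with Herc6 (1.42 ± 0.13), Epsti1 (1.86 ± 0.19) and Gbp7 (2.01 ± 0.27) higher and Nmi (-1.31 ± 0.11), Isg20 (-0.95 ± 0.12) and Tdrd7 (-0.70 ± 0.09) lower. The induction pathway counted 3 higher and 7 lower of 12 (25% and 58.3%, against the same 32.8% and 32.4%); Tmem173, which encodes STING, was higher in TS/A (1.03 ± 0.08, adjusted p = 1.75e-05), and Nlrc5 (-3.62 ± 0.20) and Tlr3 (-1.39 ± 0.12) were lower.

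Markers of other cell types were read beside these values. The epithelial markers Epcam, Cdh1, Krt7, Krt8, Cldn3 and Cldn7 were each under 1 CPM in all TS/A libraries. Krt18 had 148 to 204 CPM there and Krt19 had 30.6 to 55.7 CPM. The summed epithelial level was 180 to 260 CPM in TS/A and 2142 to 2976 CPM in 4T1. Within 4T1 that sum was 2976 and 2873 CPM in the Gpr56 libraries, against 2157 and 2142 CPM in 4T1 empty. Epcam, Cdh1, Krt7, Krt8, Krt18 and Krt19 each rose in 4T1 Gpr56, whereas Cldn3 fell, with 5.01 and 6.28 CPM in the Gpr56 libraries, against 16.1 and 14.5 CPM in 4T1 empty (-1.47 ± 0.16, edgeR adjusted p = 1.79e-05), and Cldn7 had 1.59 and 1.88 CPM, against 2.53 and 2.21 CPM in 4T1 empty (adjusted p = 0.345). The 10 fibroblast markers summed to 149 to 336 CPM in TS/A, most of it Col1a1, and to 9.22 to 16.5 CPM in 4T1. The 19 immune markers summed to 27.3 and 29.9 CPM in the 4T1 Gpr56 libraries, against 15.8 and 15.3 CPM in 4T1 empty, with Cd68 and Cd14 the leading ones; 16 of the 19 were under 1 CPM in every library, 6 were at 0 throughout, among them Adgre1, and Ptprc had at most 3 reads. The 7 endothelial markers were each under 1 CPM. The part of these differences in the results above was not tested, and in bulk libraries fewer expressing cells and less RNA per cell cannot be told apart.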

How the data were processed

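The 8 libraries were TruSeq bulk RNA-seq of total RNA, per the labels' protocols. The authors deposited, for each library, a read count and an RPKM value per transcript; for these, aligner, annotation and genome build were not given in the sources used here. As deposited, counts are whole numbers, and the deposited RPKM values equal reads over length and library reads within 0.001 for 98.4% of the transcripts that had 20 reads or more. Of 65042 transcripts, 65023 were found in GENCODE M21 (GRCm38). Counts and RPKM were summed by gene symbol, which gave the same reads by identifier for all 38 members.

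Counts were tested with edgeR 4.0.16 (TMM, filterByExpr, quasi-likelihood F test) in R 4.3.3, with Benjamini-Hochberg adjustment over all genes tested and a threshold of 0.05. Standard errors are the log2 fold change over the root of F. Vector effects were fitted in each line alone, since the spread differs between the lines; line and difference were fitted over all 8 libraries. CPM are TMM-scaled. Values in every library are given for the member with the smallest p of each role group in 4T1 and in TS/A against 4T1; others shown in full were picked after their values were seen. DESeq2 1.42.0 and limma 3.58.1 served as alternatives, beside other scalings, filters and left-out libraries. The members, lists and tests were chosen with earlier results of these data known. Test code was tested on simulated data. The libraries hold 10510569 to 25959142 counted reads; floors of 3 reads cover counting error only.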

Additional observations from a re-analysis of the deposited data

Results flagged for a closer look

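The effect of the Gpr56 label on Adgrg1, the targeted gene, differed between the lines: the TS/A effect minus the 4T1 effect was -5.67 on the log2 scale (SE 0.55, edgeR adjusted p = 0.0204). In TS/A the log2 fold change was -0.51 (adjusted p = 1), with 22.6 and 13.3 CPM in the libraries labelled Gpr56, against 34.8 and 16.3 CPM in the empty-vector libraries. In 4T1 it was 5.15 (adjusted p = 7.74e-14), higher in both Gpr56 libraries. The test of the difference lost its call when any 1 of the 4T1 libraries or of the TS/A libraries labelled Gpr56 was left out, with differences of -6.11 to -5.34 and adjusted p of 0.104 to 0.274. With groups of 2 libraries, no library could be tested as standing apart.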

How the results depend on the processing

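In 4T1, 13 members were called; scaling by DESeq2 size factors gave 13, library totals 14 and no filter 14. The DESeq2 Wald test gave 5 (Cmpk2, Ifih1, Ifit2, Irf1 and Oasl1), a minimum of 10 CPM in 2 libraries gave 7 of 16 tested, and the fit of all 8 libraries gave 0. Leaving out 1 library gave 6 to 15: 4T1 empty library 1 left out gave 8, and 4T1 empty library 2 or 4T1 Gpr56 library 1 left out gave 6. Chosen after seeing the data, the fit of all 8 libraries without TS/A empty library 1 gave 5, as it did without TS/A empty library 2. The calls over all genes in 4T1 were 2588, against 1549 with the DESeq2 Wald test and 27 in the fit of all 8 libraries.

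In TS/A 0 members were called under each alternative except without TS/A empty library 2, which gave 1; leaving out 1 library gave 0 to 1. Between the lines 19 were called, 12 with empty-vector libraries alone, and 15 to 23 with 1 library left out. For the difference 0 were called, 1 with the DESeq2 Wald test, 1 with no filter, and 0 to 3 with 1 library left out. The 13 members' 163 alternative values in 4T1 kept their direction, 59 of them missing the threshold; of 318 between the lines none reversed and 37 missed it. For Adgrg1 in TS/A, whose log2 fold change was -0.51, the value turned to 0.14 when TS/A empty library 1 was left out, and was -0.93 when TS/A empty library 2 was (adjusted p = 0.0348). Where no cause is visible in how an alternative is built, the cause was not tested.

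Replicate numbers are not stated to pair the libraries. The correlation of same-numbered deviations over all genes was 0.38 between the TS/A groups and -0.04 between the 4T1 groups. With the number as a replicate block, 13 members were called in 4T1, 0 in TS/A, 22 between the lines and 0 for the difference; over all genes the block gave 26 calls in TS/A, against 0. With 2 libraries a group and members such as Mx1 at under 5 reads, low members cannot be ranked at this depth.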
